A study of Mus musculus with 13 samples.

Results

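The 9 genes described here carry or store fatty acids: the cytosolic fatty acid binding proteins Fabp1, Fabp2, Fabp4, Fabp5 and Fabp7, the fatty acid translocase Cd36, and the lipid droplet proteins Plin2, Cidec and Cidea. They were chosen by name, each through a probe set annotated to that gene symbol alone, and by the brightest such probe set where a gene had several. The array measured 19938 genes in this way, and 14953 of them, with 7 of the 9 members, were bright enough on average to be tested; Cidec and Cidea were not. The arrays profiled liver of 14-day-old mice, taken 24 hours after 1 intraperitoneal dose of the liver carcinogen diethylnitrosamine (DEN, 20 mg/kg) or after saline. The study set mice with different forms of the retinoblastoma gene Rb1 side by side, with a Cre recombinase driven by the albumin promoter, and so active in hepatocytes, to remove a floxed exon of Rb1. All 13 arrays were total RNA of whole frozen liver.

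The untreated group was wild type, with floxed Rb1 and no Cre (n = 2), and there was no untreated group of any other genotype. Its sample description reads untreated and does not mention saline. The wild type DEN group had the same genotype and received DEN (n = 2). The heterozygous DEN group had 1 functional Rb1 allele and 1 floxed allele with Cre (n = 2), and another of its labels marks it as loss of heterozygosity. The N750F DEN group is labelled only by the mutant RB-N750F (n = 5), so its second allele and its Cre are not given. The knockout DEN group had floxed Rb1 with Cre (n = 2). The design text names Cre for the mice in general, while the sample labels describe the wild type as lacking it. Control mice are called littermates, but no label ties an array to a litter or says that each array was a separate animal, so p-values measure the spread between arrays only.

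Fatty acid binding proteins are small cytosolic carriers that hold fatty acids in solution and pass them between membranes, enzymes and nuclear receptors of the PPAR family. FABP1 is the abundant form of hepatocytes, FABP2 that of the intestinal epithelium, FABP4 that of adipocytes, macrophages and capillary endothelium, FABP5 is found in epidermis and macrophages among other cells, and FABP7 in brain and in Kupffer cells. CD36 takes up long-chain fatty acids at the cell surface, PLIN2 coats lipid droplets in hepatocytes, and CIDEC and CIDEA promote the fusion of droplets.

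A level below is log2 of the quantile-normalized intensity plus 16, which understates changes of dim genes, and an array is named by its group and the number in its title. The array names in the labels split the arrays into 2 sets: set 1 held 9 arrays with median deposited intensities of 76.9 to 82.99, and set 2 held 4 arrays (wild type DEN 4, heterozygous DEN 4, N750F DEN 4 and 5) with medians of 48.2 to 73.3. The set was a term in every comparison. Differences are therefore adjusted for the set, while levels and group means are not, so the 2 can disagree in size or sign. Rb1 levels did not settle the knockout label: they were 7.92 and 6.57 in the knockout DEN arrays, 7.62 to 8.43 in the other DEN arrays and 7.27 and 7.15 in the untreated arrays. Array 2 was the lowest of the 13 and array 1 lay among the other DEN arrays, so this group is the libraries labelled knockout throughout. Knockout DEN array 2 also held skeletal muscle transcripts. Its summed intensity over the muscle markers was 7585, against 512.3 to 798.1 in the other 12 arrays. Among these markers Tnnt3 (11.96), Tnnc2 (10.49), Mylpf (10.18) and Acta1 (8.68) stood far above every other array. Myh4 (6.94) and Actn3 (7.05) were also highest there but by far less. Ckm (8.25) and Atp2a1 (7.46) lay within the range of the other arrays. Alb, which encodes albumin, lay between 12.79 and 13.01 in all arrays. Y-linked genes marked the wild type DEN arrays as 2 females, the heterozygous and knockout DEN arrays as 2 males each, the untreated arrays as 1 of each, and the N750F DEN arrays as 4 females and 1 male.

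Of the 7 members tested, Fabp5, Fabp4 and Plin2 changed in at least 1 comparison of groups, and Fabp1, Fabp2, Fabp7 and Cd36 in none. A call is an adjusted p under 0.05 in the limma fit, with Benjamini-Hochberg adjustment over all 14953 genes. After DEN, 1 member (Fabp5) was lower in wild type than in untreated liver, where 0.689% of all genes tested were called (0.388% lower). One member (Fabp5) was lower in heterozygous DEN liver, against a background of 1.4% (0.729% lower), and 1 (Fabp4) in N750F DEN liver, against 6.21% (2.34% lower). Between DEN-treated genotypes, Fabp5 and Plin2 were higher in N750F than in wild type, where 1.42% of genes were called (1.13% higher), and Fabp5 was higher in N750F than in heterozygous liver, where 1.64% were called (1.3% higher). No member was called in the other 5 comparisons by limma, and at an unadjusted p under 0.05 the members numbered 0 in the knockout DEN comparison with untreated liver, 1 in that of heterozygous with wild type, 2 in knockout versus wild type, 2 in knockout versus heterozygous and 3 in N750F versus knockout. Over all genes tested, the shares with an unadjusted p under 0.05 were 9.48%, 6.88%, 8.55%, 9.62% and 12.2% in the same order, and the shares called were 0.0869%, 0.00669%, 0.0468%, 0.301% and 0%. The 4 comparisons with untreated liver share the same 2 untreated arrays and are not independent of each other.

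**Figure D1:**
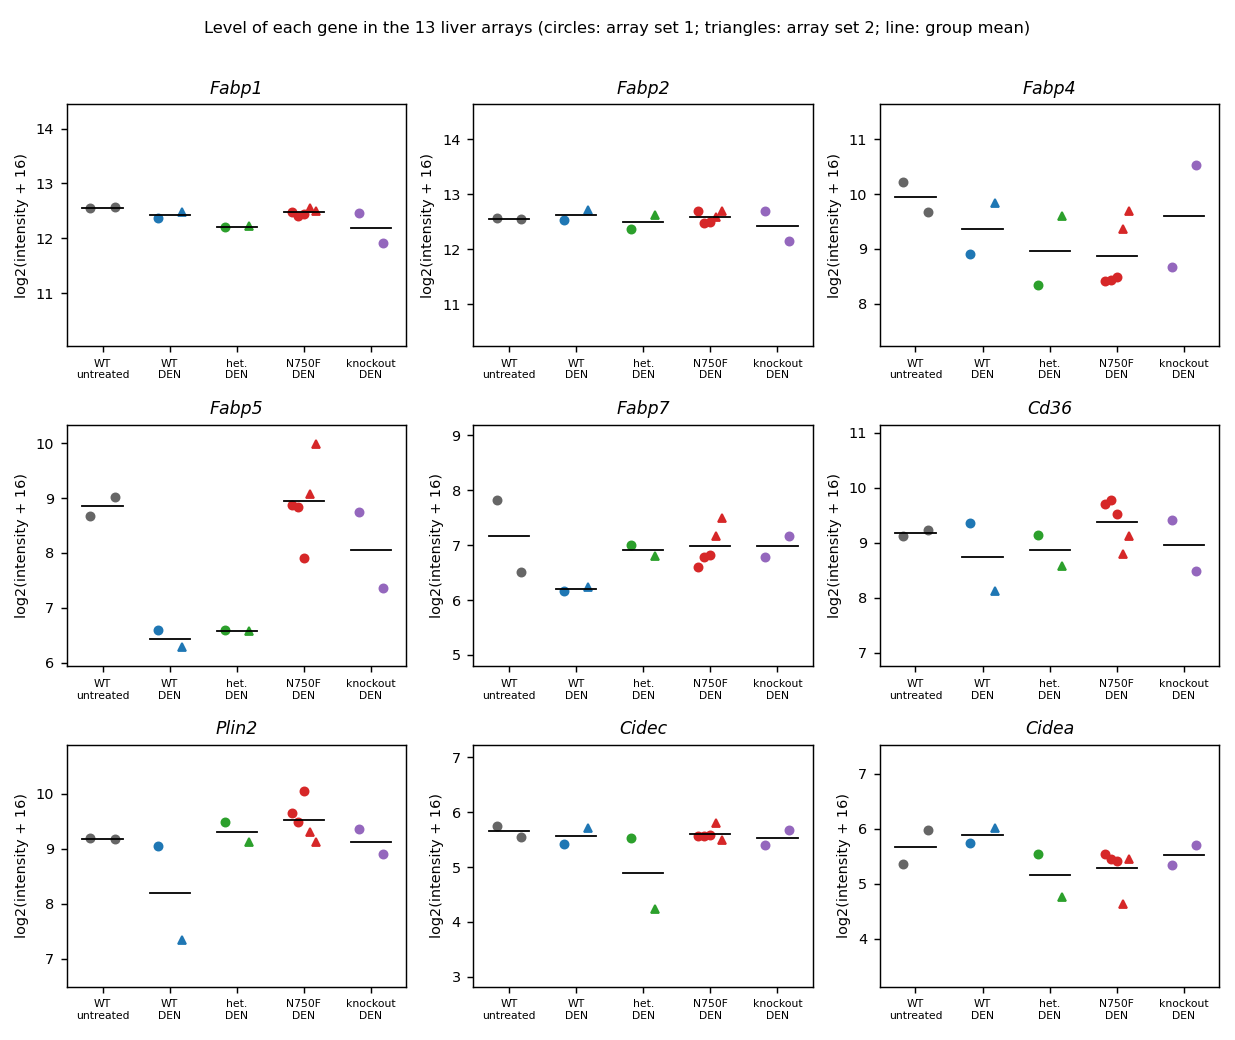
Level of each of the 9 genes, as log2(normalized intensity + 16), on the vertical axis in the 13 arrays, by group on the horizontal axis (WT, wild type; het., heterozygous); each point is 1 array, circles are set 1, triangles are set 2 and the line is the group mean. Fabp5 stands between 6.28 and 6.60 in the 4 wild type and heterozygous DEN arrays and between 7.36 and 9.99 in the other 9, while Fabp1 and Fabp2 vary by 0.66 and 0.56 over all arrays.

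Fabp5, which binds fatty acids and retinoic acid and delivers them to the nucleus, had the widest spread over the groups among the members. Its levels were 8.68 and 9.02 in untreated liver, 6.59 and 6.28 in wild type DEN liver and 6.60 and 6.58 in heterozygous DEN liver. In N750F DEN liver they were 8.88, 8.84, 7.90, 9.08 and 9.99, and in knockout DEN liver 8.75 and 7.36. The wild type and heterozygous DEN arrays thus lay below every array of the other 3 groups. As deposited, before normalization, the intensities were 381 and 490 in untreated liver, 90.8 and 44.4 in DEN-treated wild type, 85.3 and 65.2 in heterozygous DEN, 240 to 1000 in N750F DEN, and 434 and 151 in knockout DEN.

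Fabp5 fell 6.26-fold from untreated to wild type DEN liver (log2 difference -2.65 ± 0.52, SE, n = 2 and 2, limma adjusted p = 0.038, 95% interval -3.77 to -1.52). It fell 5.64-fold from untreated to heterozygous DEN liver (-2.50 ± 0.52, n = 2 and 2, limma adjusted p = 0.0355, interval -3.62 to -1.37). Arrays of the compared groups did not overlap in either case. The wild type call was lost in 8 of the 13 fits that left out 1 array: without untreated 1 (adjusted p = 0.250), untreated 2 (0.120), wild type DEN 4 (0.210), heterozygous DEN 3 or 4 (0.0583 each) or N750F DEN 1, 2 or 4 (0.0603, 0.0612 and 0.0514). The heterozygous call was lost without untreated 1 or 2, heterozygous DEN 3 or 4 or N750F DEN 2 (limma adjusted p = 0.0531 for the last). Both calls were lost within set 1 alone, which holds 1 array of each of these DEN groups, and the wild type difference there was -2.26.

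Among the DEN-treated groups, Fabp5 was 5.84-fold higher in N750F than in wild type liver (log2 difference 2.55 ± 0.42, SE, n = 5 and 2, limma adjusted p = 0.0097, interval 1.65 to 3.44). It was 5.27-fold higher in N750F than in heterozygous liver (2.40 ± 0.42, n = 5 and 2, limma adjusted p = 0.00909). Every N750F array lay above every wild type and heterozygous array in both comparisons. Within set 1 alone the difference from wild type was 1.95 (n = 3 and 1) and within set 2 alone 3.25 (n = 2 and 1). The difference from heterozygous liver was likewise 1.95 (n = 3 and 1) in set 1 and 2.96 (n = 2 and 1) in set 2. Each set held only 1 wild type DEN and 1 heterozygous DEN array, so these within-set values are given as sizes only. The N750F call against wild type was lost without wild type DEN 4 (2.07, adjusted p = 0.333), and that against heterozygous liver without heterozygous DEN 3 (2.73, adjusted p = 0.0526) or 4 (2.10, adjusted p = 0.279), and with sex as a covariate (2.37, adjusted p = 0.127).

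No difference in Fabp5 between N750F DEN and untreated liver was called (-0.10 ± 0.43, interval -1.03 to 0.84, limma adjusted p = 0.928), nor between heterozygous and wild type DEN liver (0.15 ± 0.49, adjusted p = 0.978). Libraries labelled knockout lay between: they did not overlap the wild type or heterozygous DEN arrays, but the differences of 1.85 (interval 0.73 to 2.97, limma adjusted p = 0.306) and 1.70 (0.58 to 2.82, adjusted p = 0.261) were not called. The lower of the pair, 7.36, was array 2, the one with muscle transcripts. From the highest group mean to the lowest, the order was N750F DEN (8.94 ± 0.74, SD, n = 5), untreated (8.85 ± 0.24, n = 2), knockout DEN (8.06 ± 0.98, n = 2), heterozygous DEN (6.59 ± 0.01, n = 2) and wild type DEN (6.44 ± 0.22, n = 2). No pair of neighbours in this order passed the test. These means are not adjusted for the set: N750F DEN ranked above untreated, whereas the adjusted difference was -0.10. The limma F test over the 5 groups called Fabp5 (F = 15.4, adjusted p = 0.00927) and no other tested member, while 2.89% of all genes tested were called.

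A second probe set annotated to Fabp5 gave the same pattern, but it is not independent, since both probe sets list the same 5 transcript accessions. Its levels were 8.51 and 8.78 in untreated liver, 6.40 and 6.04 in DEN-treated wild type, 6.55 and 6.23 in heterozygous DEN, 7.80 to 9.79 in N750F DEN, and 8.54 and 7.26 in knockout DEN. It differed by -2.62 ± 0.51 between wild type DEN and untreated liver (limma adjusted p = 0.0372) and by 2.59 ± 0.41 between N750F and wild type after DEN (adjusted p = 0.00881). Fabp5 has close copies in the mouse genome, and which transcripts either probe set binds was not tested.

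**Figure D2:**
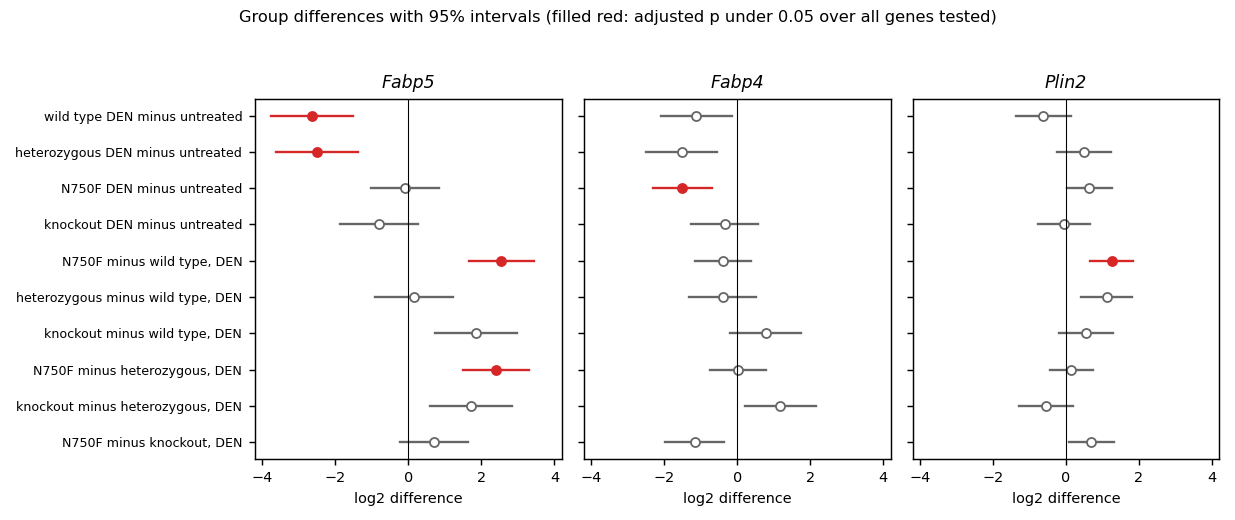
Differences between groups (horizontal axis, log2 scale) for Fabp5, Fabp4 and Plin2 in the 10 comparisons, with 95% intervals from the limma fit; filled red points have an adjusted p under 0.05 over all genes tested. For Fabp5 the wild type and heterozygous DEN groups are lower than untreated liver (-2.65 and -2.50) and N750F is higher than both (2.55 and 2.40); Fabp4 and Plin2 have 1 called difference each.

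Summed markers of macrophages, neutrophils and erythroid cells were lowest in the same 4 arrays as Fabp5. The summed intensity of the 12 Kupffer cell and macrophage markers was 5467 and 3832 in untreated liver, 1704 and 1748 in wild type DEN and 2396 and 2135 in heterozygous DEN. In N750F DEN liver it was 2520 to 4259 and in knockout DEN liver 2824 and 4245. Thus the 4 arrays with the lowest Fabp5 also had the lowest macrophage sums, although the gap was narrow (2396 against 2520). Within groups the sum did not follow Fabp5 throughout. Untreated 1 had the higher sum of its pair but the lower Fabp5 (8.68 against 9.02), and so did knockout DEN 2 (7.36 against 8.75). N750F DEN 4 had the lowest sum of its group beside a Fabp5 of 9.08. The wild type DEN pair was also reversed, while heterozygous DEN 3 was the higher of its pair in both. The sum weighs bright markers such as C1qc most. The mean level of the 12 markers was 7.00 to 7.43 in these arrays and 7.57 to 8.37 in the other 9. Single markers differed: C1qa was 6.10 and 6.43 in wild type DEN against 6.26 and 5.94 in untreated liver. In the limma fit 3 of the 12 markers fell in wild type DEN against untreated liver, where 0.689% of all genes were called, and 1 fell in heterozygous DEN liver (1.4%). Of the same 12, 2 were higher in N750F than in wild type DEN liver (1.42%) and none was called in N750F against heterozygous DEN liver (1.64%), where the list's median difference was 0.66. The same 4 arrays were also lowest in the neutrophil sum (7 markers, 169.7 to 246.3 against 268.3 to 557.4 in the other 9) and in the erythroid sum (2 of 7 markers measured, 139.2 to 178.4 against 197.5 to 384.8). The sum of 12 endothelial markers was 4538 to 4826 in untreated, 3706 to 3758 in DEN-treated wild type, 3079 to 3260 in heterozygous DEN and 2986 to 4701 in N750F DEN liver, so N750F array values reached below those of the heterozygous group. The part of any of these cell types in the Fabp5 differences was not tested, and in whole liver fewer cells of a type and less RNA per cell cannot be told apart.

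**Figure D3:**
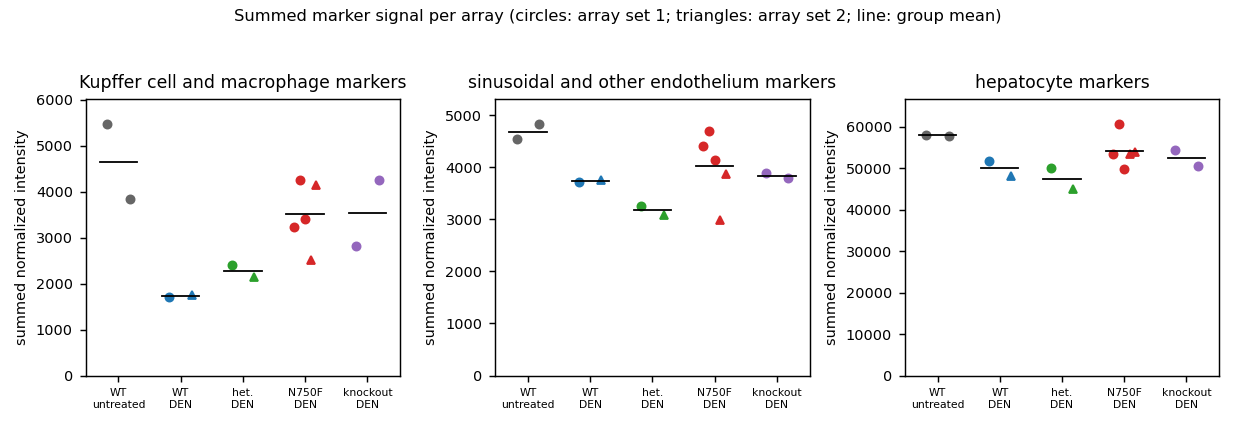
Summed normalized intensity (vertical axis, linear, from 0) of 12 Kupffer cell and macrophage, 12 endothelial and 12 hepatocyte markers in each array by group; circles are set 1, triangles set 2 and the line is the group mean. The macrophage sum is 1704 to 2396 in the wild type and heterozygous DEN arrays and 2520 to 5467 in the other 9, while the hepatocyte sum runs from 44860 to 60600.

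The genes whose levels followed Fabp5 most closely over the 13 arrays were Igf2, a fetal growth factor (Pearson r = 0.96), Robo1, a guidance receptor (0.93), and Adamts6, a secreted protease (0.93). Without the 2 arrays farthest from the median of Fabp5 the values were 0.94, 0.91 and 0.95. Igf2 spanned levels of 7.75 to 12.71. By choice these were the highest among tested genes, with predicted loci, Riken clones, small RNAs, Xist and Y-linked genes left out. The arrays share groups and sets.

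Fabp4, the carrier of adipocytes, macrophages and capillary endothelium, was lower in N750F DEN than in untreated liver, and its levels also differed between the array sets. Its levels were 10.21 and 9.67 in untreated liver, 8.90 and 9.83 in wild type DEN, and 8.34 and 9.60 in heterozygous DEN. In N750F DEN liver they were 8.43, 8.43, 8.49, 9.36 and 9.69, and in knockout DEN liver 8.68 and 10.53. The DEN arrays of set 1 lay at 8.34 to 8.90 with the exception of knockout DEN 2, the array with muscle transcripts and the highest Fabp4 of all, whereas the DEN arrays of set 2 lay at 9.36 to 9.83.

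Fabp4 fell 2.83-fold from untreated to N750F DEN liver (log2 difference -1.50 ± 0.38, SE, n = 2 and 5, limma adjusted p = 0.0351, interval -2.31 to -0.69), although 1 N750F array (9.69) lay just above untreated 2 (9.67). The difference was the same size within set 1 alone (-1.50, limma adjusted p = 0.092) but was -1.07 without a term for the set (adjusted p = 0.355). It was not called without untreated 1 (-1.23, adjusted p = 0.351), untreated 2 (-1.77, adjusted p = 0.0825), heterozygous DEN 3 or 4, or N750F DEN 1, 2 or 3 (adjusted p of 0.0552 to 0.0805 by limma). In heterozygous DEN liver Fabp4 differed from untreated by -1.52 ± 0.45 (limma adjusted p = 0.118), in wild type DEN by -1.12 ± 0.45 (0.289) and in knockout DEN by -0.34 ± 0.43 (0.866). Leaving out either knockout array brought the heterozygous difference under the threshold (limma adjusted p = 0.0114 in both). By group mean, Fabp4 ran from untreated (9.94 ± 0.38, SD, n = 2) through knockout DEN (9.60 ± 1.31, n = 2), wild type DEN (9.37 ± 0.66, n = 2) and heterozygous DEN (8.97 ± 0.90, n = 2) to N750F DEN (8.88 ± 0.60, n = 5), and no neighbours in this order passed the test. These means are not adjusted for the set, and the adjusted difference of N750F from heterozygous DEN liver was 0.016.

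Fat tissue in the samples would carry Fabp4, and 7 of 8 adipocyte markers were measured. Adipoq, which encodes adiponectin, lay at 5.92 to 6.54, close to the 5.94 at which a gene was tested. Lipe (4.40 to 6.62) and Adig (5.26 to 7.16) also spanned that level. Lep (6.02 to 7.08), Plin1 (6.60 to 7.83) and Retn (6.85 to 7.71) lay above it in every array. The adipocyte sum was 1191 to 1253 in untreated, 909.2 to 960 in wild type DEN, 904.7 to 918.1 in heterozygous DEN, 716.8 to 1031 in N750F DEN and 817.8 to 1304 in knockout DEN liver. Much of this sum came from Pck1, which hepatocytes express for gluconeogenesis (9.35 and 9.31 in untreated liver, 7.92 to 9.62 after DEN). Knockout DEN 2 had the highest sum (1304), the highest Fabp4 (10.53) and the highest Pck1 (9.62). The list's median difference from untreated liver was 0.02 in wild type, 0.04 in heterozygous, -0.21 in N750F and -0.34 in knockout DEN liver, and limma called none of the 7 genes. The part of fat tissue in the Fabp4 difference was not tested. The genes that followed Fabp4 most closely over the 13 arrays were the ribosomal protein gene Rps20 (Pearson r = 0.95), Acp5, an acid phosphatase of osteoclasts and macrophages (0.95), and Zfp36l1, an RNA-binding regulator of mRNA decay (0.94).

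Fabp7, the brain and Kupffer cell form, had levels of 7.82 and 6.51 in untreated liver, 6.17 and 6.24 in wild type DEN and 7.00 and 6.81 in heterozygous DEN. They were 6.60, 6.79, 6.83, 7.17 and 7.50 in N750F DEN and 6.79 and 7.17 in knockout DEN liver. The 2 wild type DEN arrays were the lowest of the 13, and their difference from untreated liver, -1.11 ± 0.39 (SE, n = 2 and 2), was not called (limma adjusted p = 0.223). The 2 untreated arrays stood farther apart than the lowest and the highest N750F array.

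Fabp1, the main fatty acid carrier of hepatocytes, was among the steadiest members. Like that of Fabp2, its mean level stood at the 99.9th percentile of all genes, and whether this narrows its differences was not tested. Its levels were 12.55 and 12.57 in untreated, 12.38 and 12.48 in wild type DEN, and 12.21 and 12.22 in heterozygous DEN liver. They ran from 12.41 to 12.54 in N750F DEN liver and were 12.46 and 11.91 in knockout DEN liver, with the low value on the array that held muscle transcripts. Heterozygous DEN and untreated arrays did not overlap, but the difference of -0.38 ± 0.25 (SE, n = 2 and 2) was not called (limma adjusted p = 0.509). The hepatocyte marker sum was 44860 and 49960 in the heterozygous group, 57830 and 58040 in untreated liver and 48020 to 60600 in the other arrays, and its part in the Fabp1 level was not tested.

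Fabp2, known as the intestinal form, gave a bright signal in every array. The 13 levels ran from 12.16 (knockout DEN 2) to 12.72 (wild type DEN 4), with 12.57 and 12.55 in untreated liver. No comparison called it, and the F test over the 5 groups gave F = 0.159 (limma adjusted p = 0.972). Among enterocyte markers, Vil1, which encodes the microvillus protein villin, lay at 5.71 to 6.68, near the level of 5.94 at which a gene was tested. The lactase and sucrase-isomaltase genes Lct (4.68 to 6.20) and Sis (4.86 to 6.35) had means below that level and were not tested. Of the other markers, the intestinal transcription factor gene Cdx1 lay at 6.83 to 7.84, and Apoa4, an apolipoprotein gene that liver also expresses, at 9.18 to 11.35. The part of intestinal tissue in the Fabp2 level was not tested. Over the 13 arrays Fabp1 and Fabp2 had a Pearson r of 0.77. The lowest value of both was on knockout DEN 2, the array with muscle transcripts (11.91 and 12.16). The next lowest values were 12.21 and 12.36, and how far r rests on that array was not examined.

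Cd36, which brings long-chain fatty acids into the cell, had levels of 9.13 and 9.24 in untreated, 9.36 and 8.12 in wild type DEN and 9.15 and 8.57 in heterozygous DEN liver. In N750F DEN liver they were 9.71, 9.78, 9.52, 8.79 and 9.13, and in knockout DEN liver 9.42 and 8.50. The 3 highest arrays were the set 1 arrays of N750F, and its set 2 arrays overlapped the other groups. Cd36 differed by 0.57 ± 0.25 between N750F and wild type DEN liver (SE, n = 5 and 2, limma adjusted p = 0.323) and by 0.75 ± 0.27 between N750F and knockout DEN liver (n = 5 and 2, adjusted p = 0.309). The latter was 1.21 and called without knockout DEN 1 (limma adjusted p = 0.0356), which leaves only the array with muscle transcripts in that group.

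Plin2, the droplet coat protein that accumulates with triglyceride in hepatocytes, was lowest in 1 wild type DEN array. Its levels were 9.19 and 9.18 in untreated, 9.05 and 7.34 in DEN-treated wild type, 9.49 and 9.12 in heterozygous DEN and 9.36 and 8.90 in knockout DEN liver. In N750F DEN liver they were 9.65, 9.49, 10.04, 9.30 and 9.12. All N750F arrays lay above both wild type DEN arrays, the nearest at 9.12 against 9.05, and overlapped the heterozygous group.

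Plin2 was 2.39-fold higher in N750F than in wild type DEN liver (log2 difference 1.26 ± 0.28, SE, n = 5 and 2, limma adjusted p = 0.0397, interval 0.67 to 1.85). The size rested largely on wild type DEN 4: without it the difference was 0.67 and not called. Within set 1, which does not hold that array, it was 0.68. Within set 2 it was 1.88, and each of these fits holds only 1 wild type DEN array. Leaving out an untreated or heterozygous array, or any N750F array, also brought the adjusted p to between 0.0522 and 0.0930, with differences of 1.17 to 1.34. Heterozygous DEN liver differed from wild type DEN by 1.11 ± 0.33 (limma adjusted p = 0.665), or 1.73 without wild type DEN 3 (adjusted p = 0.0405). Neither wild type DEN (-0.62 ± 0.35, limma adjusted p = 0.469) nor N750F DEN liver (0.64 ± 0.29, adjusted p = 0.210) differed from untreated liver past the threshold.

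**Figure D4:**
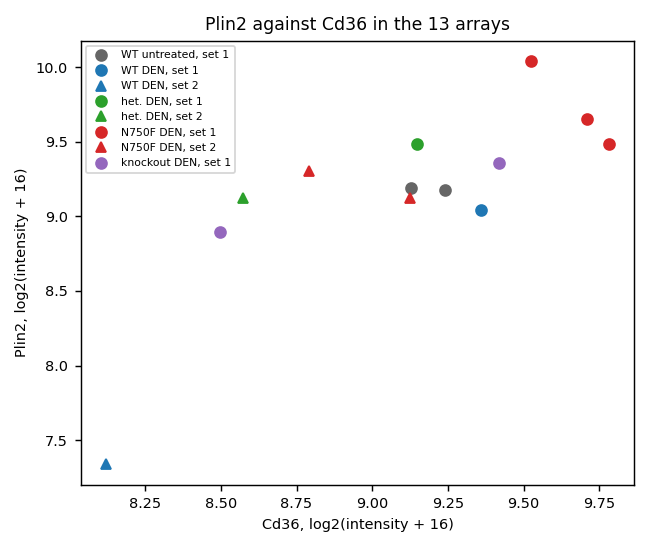
Plin2 level (vertical axis) against Cd36 level (horizontal axis), both log2(normalized intensity + 16), with 1 point per array coloured by group; circles are set 1 and triangles set 2. Wild type DEN 4 is lowest in both (7.34 and 8.12), and the 3 set 1 arrays of N750F are at the upper right.

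Plin2 and Cd36 varied together from array to array (Pearson r = 0.78, Spearman rho = 0.79, 13 arrays). Without the 2 arrays farthest from the median of Cd36, wild type DEN 4 and knockout DEN 2, Pearson r was 0.55, and over the 9 arrays of set 1 it was 0.67. The arrays share groups and sets, so this is a description. The genes that followed Plin2 most closely were Abcb4, the canalicular phosphatidylcholine transporter (0.94), Marf1, a regulator of RNA (0.94), and Gulp1, an adaptor for engulfment (0.93). The same values were 0.77, 0.69 and 0.61 without the 2 arrays farthest from the median of Plin2.

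Plin2, Cd36 and Fabp1 are textbook targets of PPAR receptors, whose response element is built from the half-site AGGTCA, so their promoters are shown with each match in capitals. The sequences are from RefSeq (GRCm38.p6), run 5′ to 3′ on the gene's strand, and cover 250 bases before to 50 after the start; TGACCT is the half-site on the opposite strand.
Plin2: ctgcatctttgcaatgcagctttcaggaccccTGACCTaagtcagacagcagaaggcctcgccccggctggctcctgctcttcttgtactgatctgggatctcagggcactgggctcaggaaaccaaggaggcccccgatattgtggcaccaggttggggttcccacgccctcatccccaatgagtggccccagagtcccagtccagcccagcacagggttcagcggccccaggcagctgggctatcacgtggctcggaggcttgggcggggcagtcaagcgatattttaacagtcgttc
Cd36: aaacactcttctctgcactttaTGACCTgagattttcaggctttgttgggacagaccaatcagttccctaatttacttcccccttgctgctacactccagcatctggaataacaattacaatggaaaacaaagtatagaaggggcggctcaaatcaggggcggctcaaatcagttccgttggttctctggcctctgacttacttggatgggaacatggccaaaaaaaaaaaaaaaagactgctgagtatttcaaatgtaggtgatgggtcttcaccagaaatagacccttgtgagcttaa
Fabp1: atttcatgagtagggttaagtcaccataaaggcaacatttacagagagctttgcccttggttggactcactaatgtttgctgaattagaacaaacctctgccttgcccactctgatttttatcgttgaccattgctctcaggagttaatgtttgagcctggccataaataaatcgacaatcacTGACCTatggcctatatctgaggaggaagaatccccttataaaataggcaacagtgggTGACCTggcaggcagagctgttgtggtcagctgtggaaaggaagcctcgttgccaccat
The Plin2 window is chr4:86670010-86670309 (minus strand), that of Cd36 is chr5:17835847-17836146 (minus strand) and that of Fabp1 is chr6:71199629-71199928 (plus strand). The half-site began 218 bases before the start in Plin2, 228 before it in Cd36, and 67 and 9 before it in Fabp1. Of the 8 members looked up (all but Cidea), 6 had a window available, and Fabp4 and Fabp5 had none. Of these 6, 4 (the 3 shown and Fabp7) held the half-site on either strand, as did 16.3% of all 32851 windows of this length. The letters TATAAA were found in the Fabp1 window alone among the 6, and in 13.6% of all windows. The E2F motif, searched as TTTGGCGC or TTTCCCGC on both strands, was in none of the 6 and in 1.56% of all windows. A match is a run of letters in this window and no evidence of binding.

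Cidec and Cidea, the droplet fusion proteins, were too dim to be tested. Cidec lay at 5.75 and 5.55 in untreated, 5.42 and 5.72 in DEN-treated wild type, 5.52 and 4.24 in heterozygous DEN, 5.49 to 5.81 in N750F DEN, and 5.39 and 5.68 in knockout DEN liver. Cidea lay at 5.36 and 5.98, 5.74 and 6.02, 5.55 and 4.75, 4.63 to 5.53, and 5.34 and 5.70 in the same order. For Cidea the wild type DEN arrays lay above all other DEN arrays and overlapped the untreated ones, and for Cidec the untreated arrays lay above both heterozygous arrays; the other pairs of groups overlapped. The lowest value of each gene was on a set 2 array.

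The other genes of fatty acid handling mostly did not pass the test. Of 4 tested genes for further lipid-binding proteins, no comparison called any by limma, and at most 1 had an unadjusted p under 0.05 in a comparison. Among 12 tested genes of fatty acid uptake and activation, Acsl4, which joins arachidonic and related acids to coenzyme A, was the 1 gene called. It rose from untreated to wild type DEN liver (1.48 ± 0.29, SE, n = 2 and 2, limma adjusted p = 0.038) and to N750F DEN liver (1.04 ± 0.24, n = 2 and 5, adjusted p = 0.0275). The list's median difference was -0.04 in wild type and 0.03 in N750F DEN liver, against -0.02 and -0.06 over all genes. Of all genes tested, 0.689% were called in the wild type and 6.21% in the N750F comparison. The wild type call was lost without any one of untreated 1 or 2, wild type DEN 3 or 4, heterozygous DEN 3 or 4 or N750F DEN 2, 3 or 5 (limma adjusted p of 0.0524 to 0.315), and the N750F call without untreated 1 or 2 or N750F DEN 3 (0.0651 to 0.263).

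Of 26 tested genes for droplet coat, triglyceride synthesis and lipolysis, Abhd5, the coactivator of the lipase ATGL, was the 1 gene called. It rose in heterozygous DEN (1.80 ± 0.38, SE, n = 2 and 2, limma adjusted p = 0.0355) and in N750F DEN liver (1.54 ± 0.32, n = 2 and 5, adjusted p = 0.0181), both against untreated liver. The other 25 were not called in those comparisons, and medians of the list were 0.06 and -0.01. Over all genes tested, 1.4% were called in the heterozygous and 6.21% in the N750F comparison. The N750F call was lost without untreated 1 or 2 (limma adjusted p = 0.242 and 0.0607), and the heterozygous call without either of these, either wild type DEN array, either heterozygous array or N750F DEN 2 or 5 (0.0523 to 0.276).

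Most of the 35 tested PPAR targets and regulators were not called after DEN. In wild type, heterozygous and knockout DEN against untreated liver 34 each were not called. Over all genes tested, 0.689%, 1.4% and 0.0869% were called in these comparisons. At an unadjusted limma p under 0.05 the list had 10, 11 and 6 genes in the same order, and 15 in N750F DEN. The shares over all genes were 13.7%, 15.6%, 9.48% and 22.2%. In N750F DEN against untreated liver 3 rose, 2 fell and 30 were not called, where 6.21% of all genes tested were called. Those that rose were Pdk4, which restrains pyruvate oxidation (1.47 ± 0.27, SE, limma adjusted p = 0.014), and the acyl-CoA thioesterase genes Acot1 (1.22 ± 0.25, adjusted p = 0.0182) and Acot2 (1.19 ± 0.29, adjusted p = 0.0307). Those that fell were Creb3l3, a liver transcription factor of triglyceride metabolism (-0.99 ± 0.24, limma adjusted p = 0.0328), and Acadm, the medium-chain acyl-CoA dehydrogenase (-0.93 ± 0.23, adjusted p = 0.0307). In wild type DEN liver Acot1 alone rose (1.67 ± 0.30, limma adjusted p = 0.0249), and in heterozygous DEN liver Creb3l3 alone fell (-1.55 ± 0.29, adjusted p = 0.0236). Pdk4 also rose in libraries labelled knockout against untreated liver (1.89 ± 0.31, limma adjusted p = 0.0404) and was higher in N750F than in wild type DEN liver (1.43 ± 0.26, adjusted p = 0.0155). The list's medians in the comparisons with untreated liver lay between -0.29 and -0.04. None of the 5 calls in N750F DEN liver was kept without untreated 1 (limma adjusted p of 0.201 to 0.371) or untreated 2 (0.0585 to 0.125). Without N750F DEN 3 Pdk4 alone of the 5 kept its call, without N750F DEN 2 Creb3l3 and Acadm lost theirs (0.0768 and 0.0747), and without N750F DEN 1 Acot2 lost its call (0.0597). Every other call in these pathway lists against untreated liver was lost without untreated 1 too. The Acot1 call was also lost without untreated 2 or either wild type DEN array, the Creb3l3 call in heterozygous liver without either heterozygous array, and the Pdk4 call in libraries labelled knockout without untreated 2, knockout DEN 2, either heterozygous array or N750F DEN 1 or 2. Pdk4 in N750F against wild type lost its call without wild type DEN 4 (limma adjusted p = 0.488).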

How the data were processed

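Total RNA from frozen liver was amplified with WT-Ovation Pico, biotin-labelled and read on Affymetrix arrays in 1 colour, per the labels' protocols. The authors deposited 1 linear intensity per probe set and array (35556 probe sets, 13 arrays). The submitters' processing notes name RMA and Affymetrix Expression Console 1.1, with no role; the genome build is not given in the sources used here. Intensities were quantile-normalized, 16 was added (chosen knowing their range) and log2 taken. GEO's annotation gave 1 symbol for 21789 probe sets, several for 1621 and none for 12146; 21698 symbols were updated by Entrez ID (GRCm38.p6 table, names only). Genes below the 25th percentile of mean level (5.94) were left out.

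One limma 3.58.1 model (lmFit, eBayes; R 4.3.3) over all 13 arrays held group and array set, with 7 residual degrees of freedom, and gave 10 comparisons and the F test; every adjusted p is Benjamini-Hochberg over all genes within a comparison. The code was tested on simulated data. No 2 of the 78 array pairs held identical values (r within groups 0.897 to 0.981), and the number of arrays limits the precision. The text names the 9 members, cell type markers, Rb1 and the 3 genes most correlated with each called member. It also names the 4 called genes with the largest change per pathway list and comparison. Acadm, outside this rule, was added after its values were seen. The correlated genes were taken from tested genes other than predicted loci, Riken clones, small RNAs, Xist and Y-linked genes. Members and lists were chosen with earlier results of these data known. Sex was read from Y-linked genes. Alternatives changed the normalization, offset, filter, array set, covariates and arrays.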

Additional observations from a re-analysis of the deposited data

Results flagged for a closer look

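Cidea in the N750F DEN group had 1 array, number 4, far below the other 4 (level 4.63, nearest 5.41). The gap was 0.861 of the group's range, above the critical value of 0.71 for 5 arrays; chance alone gives about 1 such group in 20. Cidea was too dim to be tested, and no result rests on it.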

How the results depend on the processing

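The count of members called by limma depended on the processing. For wild type DEN against untreated liver it was 1, and 0 without quantile normalization, with median scaling, with an offset of 1, without the set term, within set 1, with sex as a covariate or with only the arrays compared; leaving out 1 array gave 0 to 1. For heterozygous DEN against untreated it was 1, and 0 under the same settings and 2 with array weights; leaving out 1 array gave 0 to 2. For N750F DEN against untreated it was 1, and 0 without quantile normalization, with median scaling, an offset of 1, no set term, the set as a random block, set 1 alone or sex; leaving out 1 array gave 0 to 1. For N750F against wild type DEN it was 2, and 1 without quantile normalization, with an offset of 1, no set term, a random block, set 2 alone, sex, array weights or only the arrays compared, and 0 within set 1; leaving out 1 array gave 0 to 2. For N750F against heterozygous DEN it was 1, and 0 within set 1 or with sex; leaving out 1 array gave 0 to 1. For heterozygous against wild type, knockout against wild type and knockout against heterozygous DEN it was 0, and 0 to 1 when 1 array was left out, and for N750F against knockout DEN 0, and 0 to 2. For the F test it was 1, and 2 with an offset of 64 or array weights and 0 within set 1; leaving out 1 array gave 1 to 2. Knockout DEN against untreated gave 0 in every alternative run. Over all genes, the calls for N750F DEN against untreated, 928, ran from 13 (without untreated 1) to 2730 (array weights), and those for N750F against wild type DEN, 212, from 0 (set 1 alone) to 494 (without wild type DEN 3). The count of PPAR genes called in N750F DEN liver, 5, ran from 0 to 11. The cause was not tested.

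Fabp5 kept its direction in its 4 called comparisons in all alternatives run, but not its calls: that of wild type DEN against untreated was kept in 12 of 28, heterozygous DEN against untreated in 15 of 28, N750F against heterozygous DEN in 24 of 29 and N750F against wild type DEN in 26 of 29. The uncalled difference between N750F DEN and untreated Fabp5 changed sign without quantile normalization (0.068), with median scaling (0.093), without the set term (0.087) and when 1 array was left out (-0.27 to 0.22). That between heterozygous and wild type DEN was -0.35 to 0.65 when 1 array was left out, and that of Fabp4 between knockout DEN and untreated -1.27 to 0.58.

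With the replicate number as a block in place of the set, the count of members called was 0 in all 5 comparisons that had calls and in the F test. Fabp5 then differed by -2.04 between wild type DEN and untreated (limma adjusted p = 0.483), by 2.05 between N750F and wild type DEN (0.0713), by 1.90 between N750F and heterozygous DEN (0.0803) and by 0.011 between N750F DEN and untreated. The labels do not say that numbers pair arrays. Untreated and knockout DEN arrays share numbers 1 and 2, and wild type and heterozygous DEN arrays share numbers 3 and 4. Numbers 3 and 4 of the wild type and heterozygous groups coincide with the sets. With the numbers of the knockout arrays crossed, which was chosen after seeing the data, the block also gave 0 members in those 5 comparisons and in the F test.

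Groups of 2 arrays limit the precision, and when 1 of them was left out the lone array was assumed to vary like the others. Set 2 holds no untreated array, so comparisons with untreated liver have a within-set value in set 1 alone. Each set holds 1 wild type DEN and 1 heterozygous DEN array, so within-set values of these groups rest on a lone array. Cidec and Cidea were near background, and their differences are not resolved. Probe positions were not used here.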
